A study of Mus musculus with 6 samples.

Results

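The IL-4 and IL-21 receptor pathway was followed in germinal center (GC) B cells through 10 genes, of 23337 in the deposited table: the receptor chains *Il4ra*, *Il21r* and *Il2rg*, the kinases *Jak1*, *Jak3* and *Tyk2*, the transcription factors *Stat3* and *Stat6*, the inhibitor *Socs1*, and *Fcer2a*, which encodes CD23. They were found by symbol, and they were chosen with their difference between genotypes in these same samples already known. Every value between genotypes below is therefore a description of these 10 genes and supports nothing beyond itself. Of the 10 genes, 9 passed the filter on low counts and were among the 9653 genes tested, and *Socs1* did not pass.

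The libraries came from mixed BM chimeras, in which lethally irradiated hosts receive bone marrow of more than a single donor, so that cells of both genotypes mature in the same kind of environment. The chimeras were reconstituted for 8 weeks, immunized with the haptenated protein NP-CGG in alum, and examined on day 11. For each library 50000 GC B cells were sorted as B220+ IgDlo CD38lo GL7+ Fas+, from WT donors (replicates 1, 3 and 5) or from Hvem-/- donors (replicates 2, 4 and 6). HVEM, encoded by *Tnfrsf14*, is a surface receptor of the TNF receptor superfamily that binds BTLA on T cells, and the comparison asked what its loss from B cells changes in their transcripts. The donors were C57BL/6 mice, labelled CD45.2 for Hvem-/- and CD45.1/2 for WT, while the study's text gives CD45.1 for the WT cells and states that both genotypes were taken from the same chimeras. Which WT and Hvem-/- libraries share a chimera is not labelled, so the fit treats the 6 libraries as unpaired. Genotype and donor line therefore coincide and cannot be told apart. *Hvem* was absent from the germline of the Hvem-/- donors rather than removed in GC B cells alone. The study used 2 lines lacking HVEM, and which of them gave these libraries is not given in the sources used here. The CD45.1 mice of the study were adults, and the ages of the Hvem-/- donors are not given there.

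The libraries held between 2505918 and 3636163 reads in genes. *Tnfrsf14* reads numbered 13, 11 and 17 for WT replicates 1, 3 and 5, but 0, 0 and 4 for Hvem-/- replicates 2, 4 and 6, which follows the labels apart from the 4 reads in replicate 6. All 10 GC B cell markers looked for, among them *Bcl6* and *S1pr2*, were detected, and their summed level was 6798 to 7057 CPM (reads scaled to a common library size) in WT and 6855 to 7455 CPM in Hvem-/- samples. Over all genes, edgeR's quasi-likelihood test with Benjamini-Hochberg adjustment called 18 genes higher and 3 lower in Hvem-/- cells at an adjusted p under 0.01. The samples of a genotype are not stated to come from separate mice, so p-values measure only the spread between these samples. Hvem-/- replicate 6 lay farther from the others of its genotype (chi-square per degree of freedom 8.22 and 8.86) than any other pair did (4.45 to 5.92), so the fold changes of *Il4ra* and *Fcer2a* are also given without it.

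IL-4 and IL-21 are the main cytokines that T follicular helper cells deliver to GC B cells. Both are read by receptors that pair a private chain, IL-4Rα or IL-21R, with the common γ chain encoded by *Il2rg*. The receptors carry JAK kinases on their cytoplasmic tails, and these phosphorylate STAT proteins, chiefly STAT6 after IL-4 and STAT3 after IL-21, which then enter the nucleus and bind DNA. SOCS1 blocks the kinases. CD23, the low-affinity receptor for IgE and a lectin of mature B cells, is a classical gene induced by IL-4 through STAT6 in B cells and is known to be higher on follicular than on GC B cells.

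STAT dimers bind palindromes in which TTC and GAA are separated by 3 bases (TTCNNNGAA) or, preferred by STAT6, by a spacer of 4 bases. Both patterns read the same on the 2 strands, and both were searched in the 300 bases around the start sites that RefSeq lists on GRCm38.p6, 250 before and 50 after each start. All 10 genes matched, with 12 start sites, 3 of them in *Fcer2a*. TTCNNNGAA was in none of the 12 windows, and the form with the longer spacer was in 1 of them. Among all 32851 windows of this length, 8.30% held TTCNNNGAA, 6.95% held the longer form and 14.6% held either. The match was TTCCCAAGAA on the minus strand of *Fcer2a*, at chr8:3691020-3691029, starting 168 bases before the start site at position 3690861. The windows of the 3 *Fcer2a* starts and that of *Il4ra* are shown because these are the genes with the largest fitted differences between genotypes among the 9 tested, and capitals mark the match. The deposited table gives 1 value per gene, so reads from the 3 *Fcer2a* starts cannot be told apart.
Fcer2a, chr8:3690812-3691111, minus strand: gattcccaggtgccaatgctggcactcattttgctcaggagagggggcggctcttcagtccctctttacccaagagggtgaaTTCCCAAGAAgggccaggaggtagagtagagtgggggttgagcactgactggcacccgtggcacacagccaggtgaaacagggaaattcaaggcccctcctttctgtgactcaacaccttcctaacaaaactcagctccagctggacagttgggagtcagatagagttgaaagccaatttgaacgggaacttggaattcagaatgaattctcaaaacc
Fcer2a, chr8:3690341-3690640, minus strand: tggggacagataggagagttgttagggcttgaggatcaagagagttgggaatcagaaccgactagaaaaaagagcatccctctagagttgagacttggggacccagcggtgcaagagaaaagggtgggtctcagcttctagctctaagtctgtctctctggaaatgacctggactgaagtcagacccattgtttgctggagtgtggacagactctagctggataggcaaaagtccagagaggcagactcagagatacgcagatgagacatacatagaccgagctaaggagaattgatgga
Fcer2a, chr8:3694125-3694424, minus strand: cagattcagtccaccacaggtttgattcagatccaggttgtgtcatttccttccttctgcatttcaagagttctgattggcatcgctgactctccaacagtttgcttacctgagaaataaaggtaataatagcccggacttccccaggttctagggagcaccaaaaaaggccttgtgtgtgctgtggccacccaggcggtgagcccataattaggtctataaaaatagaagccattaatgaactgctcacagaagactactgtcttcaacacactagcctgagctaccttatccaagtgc
Il4ra, chr7:125552021-125552320, plus strand: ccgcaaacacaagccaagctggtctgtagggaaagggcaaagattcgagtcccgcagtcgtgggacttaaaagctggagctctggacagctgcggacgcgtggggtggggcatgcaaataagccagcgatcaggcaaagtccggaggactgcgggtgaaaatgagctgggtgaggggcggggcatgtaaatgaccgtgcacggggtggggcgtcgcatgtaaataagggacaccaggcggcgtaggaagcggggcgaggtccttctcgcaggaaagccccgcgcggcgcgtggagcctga
A match is a description of these letters only, and none of these windows was measured for STAT binding.

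Among the receptor chains, *Il4ra* was lower in every Hvem-/- sample than in every WT sample, whereas the values of *Il21r* and *Il2rg* in the 2 genotypes overlapped. *Il4ra* (ENSMUSG00000030748, chr7:125552120-125579474 on GRCm38, plus strand) encodes the chain that binds IL-4 and gives the receptor its STAT6 docking sites. Its normalized read count, the count divided by the library's size factor, was 233.3, 246.3 and 242.0 for WT replicates 1, 3 and 5, compared with 170.4, 140.4 and 95.8 for Hvem-/- replicates 2, 4 and 6. Samples are listed in this order throughout. The WT samples lay within a narrow band and the Hvem-/- samples were spread, with replicate 6 lowest. The means were 240.6 ± 6.61 and 135.5 ± 37.6 (SD, n = 3 each), and the fitted log2 fold change of Hvem-/- over WT was -0.83 (SE 0.19, edgeR adjusted p = 0.0573). It stood at rank 9 by p among genes with a lower value in Hvem-/- cells and did not pass the threshold of 0.01. Without Hvem-/- replicate 6 the log2 fold change was -0.64 and the adjusted p 0.18 (edgeR).

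*Il21r* (ENSMUSG00000030745, chr7:125603429-125633570, plus strand) lies 23955 bases downstream of *Il4ra* on the same strand and encodes the private chain of the IL-21 receptor. Its normalized count was 428.6, 443.9 and 416.0 in the WT and 376.5, 377.1 and 429.2 in the Hvem-/- samples. Replicate 6, the lowest sample for *Il4ra*, was the highest Hvem-/- sample for *Il21r* and lay inside the WT range. The log2 fold change was -0.13 (SE 0.13, edgeR adjusted p = 0.75), with a 95% interval of -0.41 to 0.15, which leaves room for a difference of that size in either direction. Within a sample, the ratio of *Il4ra* to *Il21r* counts was 0.544, 0.555 and 0.582 in WT and 0.453, 0.372 and 0.223 in Hvem-/- cells, and the genotypes did not overlap. The ratio uses the same contrast that chose the genes and has no test.

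*Il2rg* (ENSMUSG00000031304, chrX:101264378-101268255, minus strand) encodes the γ chain shared by the receptors for IL-2, IL-4, IL-7, IL-9, IL-15 and IL-21. Its normalized counts of 596.6, 511.6 and 553.4 in WT and 574.7, 506.9 and 459.9 in Hvem-/- samples overlapped. The log2 fold change was -0.11 (SE 0.13, 95% interval -0.39 to 0.16, edgeR adjusted p = 0.79). The ratio of *Il4ra* to *Il2rg* was 0.437 ± 0.0452 in WT and 0.261 ± 0.0464 in Hvem-/- cells (SD, n = 3 each) and did not overlap either.

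No kinase gene passed the threshold. *Jak1*, which pairs with both private chains, had normalized counts of 1634, 1676 and 1677 in WT and 1573, 1613 and 1471 in Hvem-/- cells, and these did not overlap, although the log2 fold change was only -0.10 (SE 0.11, edgeR adjusted p = 0.75). *Jak3*, the kinase of the common γ chain, ranged from 102.1 to 166.0 in WT and from 92.2 to 137.0 in Hvem-/- samples (log2 fold change -0.42, SE 0.23, edgeR adjusted p = 0.49). The WT replicate 3 had a *Jak3* count close to those of Hvem-/- replicates 4 and 6. *Tyk2*, a JAK used by the IL-13 form of the IL-4 receptor, had counts of 87.7 to 127.0 in WT and 79.2 to 128.1 in Hvem-/- samples, so that the Hvem-/- range enclosed the WT range. Its 95% interval on the log2 scale ran from -0.61 to 0.35.

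Of the STAT factors, *Stat3* had normalized counts of 745.9, 699.1 and 742.3 in WT and 696.1, 697.6 and 650.3 in Hvem-/- cells. The genotypes were separated by 1.48 counts, and the log2 fold change was -0.10 (SE 0.12, 95% interval -0.35 to 0.14, edgeR adjusted p = 0.78). *Stat6*, the factor downstream of IL-4Rα, had counts of 363.2, 267.4 and 282.3 in WT and 270.7, 226.9 and 271.9 in Hvem-/- cells. Only WT replicates 1 and 5 were above every Hvem-/- sample, and the log2 fold change was -0.25 (SE 0.16, 95% interval -0.59 to 0.08, edgeR adjusted p = 0.57).

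The inhibitor *Socs1*, itself induced by STAT signalling, was near the limit of detection. Its reads numbered 8, 8 and 20 for the WT against 3, 3 and 10 for the Hvem-/- libraries, and the values overlapped. The pooled level was 1.99 times higher in WT, with an exact 95% interval of 1.08 to 3.84 that covers counting error only and not the spread between samples. *Socs1* was left out of the fit by the filter on low counts. In the 5 alternative fits that kept it, the log2 fold change was between -1.06 and -0.51, with an edgeR adjusted p of 0.696 to 0.845.

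*Fcer2a* (ENSMUSG00000005540, chr8:3681737-3694175, minus strand), the IL-4 target of the set, was the only one of the 10 genes past the threshold. Its normalized count was 495.0, 406.1 and 305.4 in the WT and 213.9, 213.7 and 169.1 in the Hvem-/- samples. Every WT sample was above every Hvem-/- sample, and here the WT samples were the more spread. The means were 402.2 ± 94.9 and 198.9 ± 25.8 (SD, n = 3 each), a ratio of 2.02. The log2 fold change was -1.01 (SE 0.18, 95% interval -1.38 to -0.65, edgeR adjusted p = 0.00704), rank 3 by p among genes with a lower value in Hvem-/- cells. The call rested on several samples. Without WT replicate 1 the log2 fold change was -0.84 (edgeR adjusted p = 0.182). Without WT replicate 3, Hvem-/- replicate 4 or Hvem-/- replicate 6 it was -1.01, -1.07 and -0.91 (edgeR adjusted p = 0.0248, 0.0247 and 0.0245).

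**Figure D1:**
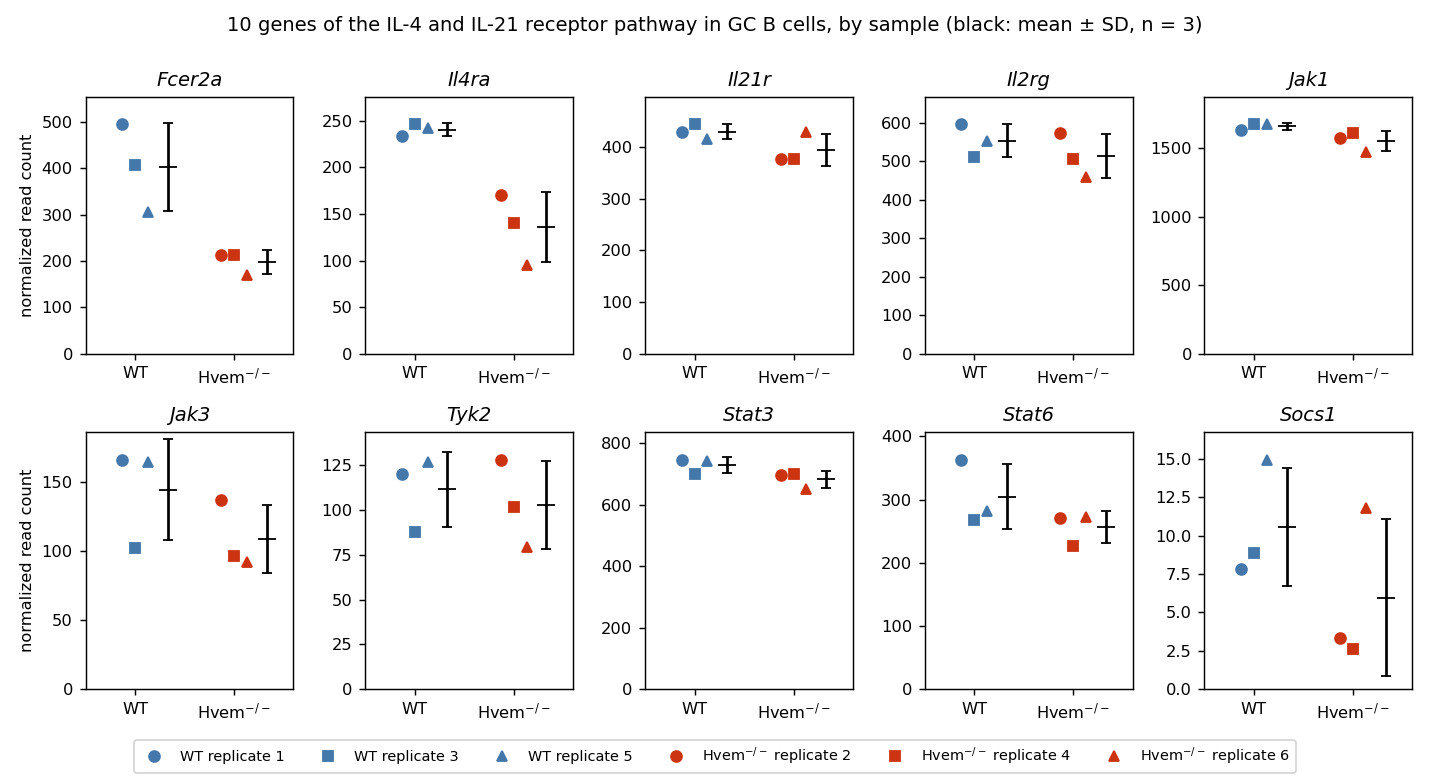
Normalized read count (vertical axis, from 0) of each of the 10 genes in the 3 WT (blue) and 3 Hvem-/- (red) samples, with a symbol per sample and the mean ± SD in black. *Fcer2a* and *Il4ra* show the widest gaps between genotypes, *Jak1* and *Stat3* narrow ones, and the other 6 genes overlap.

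Counted over the set, 1 of the 9 tested genes was called lower at an adjusted p under 0.01, against 0.0311% of all tested genes, and 0 were called higher, against 0.186%. At an unadjusted p under 0.05, 2 were lower and 0 higher, where the shares over all genes were 5.22% and 6.72%. The genotypes did not overlap, with Hvem-/- lower, in 4 of 9 genes (*Fcer2a*, *Il4ra*, *Jak1* and *Stat3*) and in 8.09% of all genes. The log2 fold change was below 0 in 9 of 9, and in 50.8% of all genes tested. The set was chosen on this contrast, so nothing is read from these counts. Hvem-/- replicate 6 held the lowest of the 6 values for 7 of the 9 genes, all but *Il21r* and *Stat6*, and WT replicate 1 held the highest for 5.

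The size of the smaller differences moved with base composition. Over all tested genes with a known sequence, the median log2 fold change ran from 0.21 in the decile of genes with the lowest GC content to -0.26 in the decile with the highest, and the longest transcripts of the 9 genes had GC contents of 47.6% to 61.0%. With a correction for GC content and length, the log2 fold change of *Fcer2a* was -0.92 (edgeR adjusted p = 0.0166) and that of *Il4ra* -0.65 (0.126), and no gene of the set passed 0.01. *Jak3*, the gene of the set richest in GC, went from -0.42 to -0.10, and *Stat6* from -0.25 to -0.09. *Il21r*, *Tyk2* and *Stat3* came to 0.0696, 0.0957 and 0.00257, above 0. *Il2rg* and *Jak1* stayed at -0.09 and -0.11. What produced the trend was not tested.

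**Figure D2:**
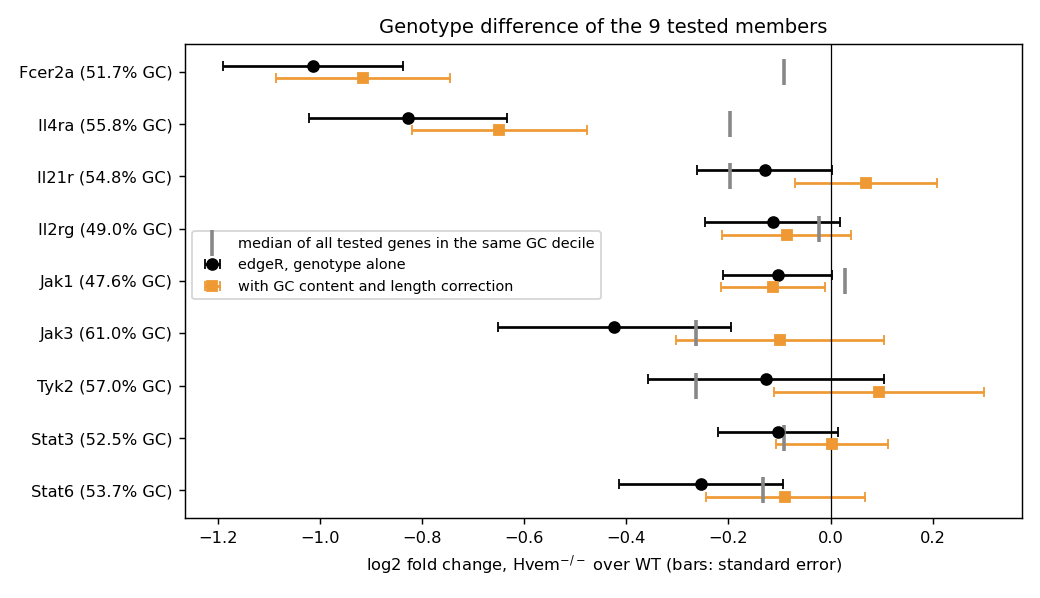
Log2 fold change of Hvem-/- over WT (horizontal axis) of the 9 tested genes, as fitted on genotype alone (black circles) and with a correction for GC content and length (orange squares), with standard errors as bars. Grey ticks give the median of all tested genes in the same decile of GC content, and only *Fcer2a* and *Il4ra* lie far from theirs.

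Levels between genes were compared per transcript length, as RPKM, reads per kilobase of the longest annotated transcript scaled to library size. In order of the median over the 6 samples they were *Jak1* (117.4), *Il2rg* (113.3), *Il21r* (60.0), *Fcer2a* (41.3), *Stat3* (41.0), *Stat6* (25.5), *Il4ra* (13.7), *Jak3* (10.5), *Tyk2* (8.14) and *Socs1* (1.02). *Il2rg* was above *Il21r*, *Stat3* above *Stat6*, *Stat6* above *Il4ra*, and *Tyk2* above *Socs1* in 6 of 6 samples with no overlap of their ranges. The other neighbours overlapped. *Jak1* exceeded *Il2rg* in 4 of 6 samples, and *Fcer2a* exceeded *Stat3* in 3 of 6, which were the WT samples. The RPKM of *Fcer2a* was 48.7 to 78.6 in WT and 26.6 to 34.0 in Hvem-/- samples, so it lay above the *Stat3* range of 40.9 to 43.9 in WT and below every *Stat3* value in Hvem-/- cells. The private IL-4 receptor chain was thus the least abundant of the 3 receptor chains, and with 57.7% of 9536 genes of known length below it, it stood under *Il21r* (90.2%) and *Il2rg* (96.0%).

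**Figure D3:**
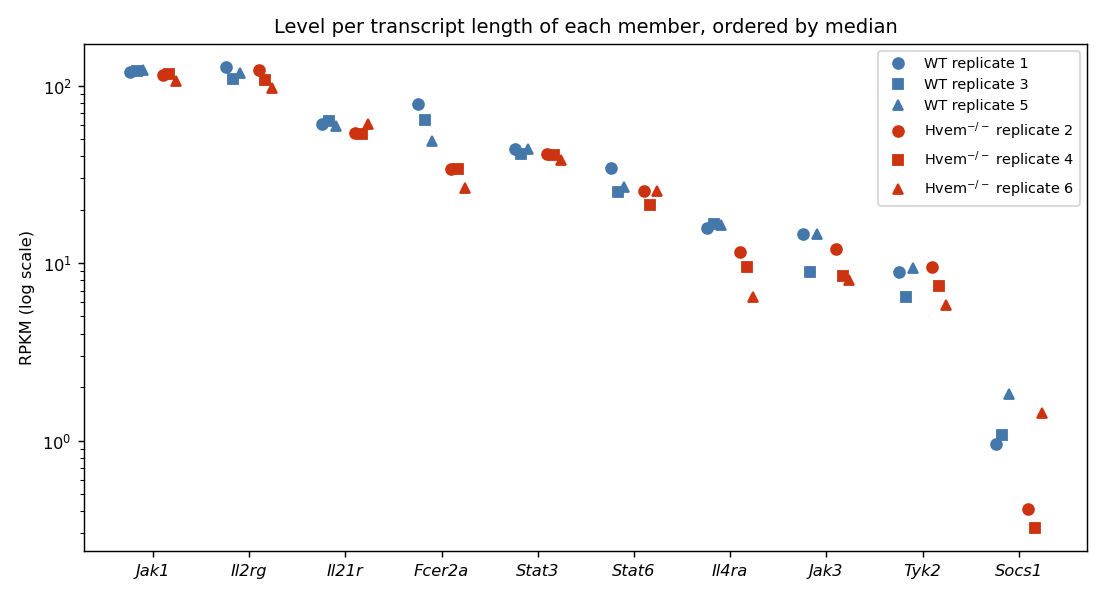
RPKM (log scale) of the 10 genes in order of their median, with the 3 WT samples in blue and the 3 Hvem-/- samples in red. *Jak1* and *Il2rg* lead at medians of 117.4 and 113.3 RPKM, *Socs1* is lowest at 1.02 RPKM, and *Fcer2a* changes places with *Stat3* between genotypes.

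Summed markers of T cells were lower in Hvem-/- samples, while those of myeloid, plasma and follicular dendritic cells overlapped. The follicular B cell sum was lower too, but overlapped without *Cr2*, its most abundant marker. The summed level of 15 T cell markers was 223.7 to 230.4 CPM in WT and 113.4 to 175.5 CPM in Hvem-/- samples, which did not overlap with or without replicate 6. Of the 11 that were tested, 10 had a log2 fold change below 0, against 50.8% of all tested genes. At an unadjusted p under 0.05, 4 were lower, against 5.22% of all tested genes, and 0 passed the adjusted threshold in edgeR. *Cd4* had normalized counts of 61.5 ± 6.78 in WT and 28.8 ± 6.59 in Hvem-/- cells, and *Cd3e*, part of the T cell receptor complex, 118.2 ± 10.5 and 65.6 ± 13.7 (SD, n = 3 each). No marker on the list was at 0 in all samples, although the sort was for B220+ cells, and *Cd2*, *Cd5* and *Lck* are also known from B cells. The highest mean on the list was that of *Cd2*, 172.8 ± 19.8 in WT and 111.0 ± 45.4 in Hvem-/- cells. *Lck*, the 1 tested marker above 0, had 83.7 ± 7.34 and 96.3 ± 17.5 (SD, n = 3 each). The sum is therefore not a measure of T cells alone. The summed level was 175.5, 156.4 and 113.4 CPM in Hvem-/- replicates 2, 4 and 6, the same order as *Il4ra* in those samples. It was 229.6, 223.7 and 230.4 CPM in WT replicates 1, 3 and 5, where the order differed. There replicate 3 had the lowest sum and the highest *Il4ra* count. T cells express *Il4ra*, *Il21r*, *Il2rg* and *Jak3* too, and in bulk samples fewer cells of a type and less RNA per cell cannot be told apart. The part of T cell transcripts in the *Il4ra* and *Fcer2a* values was not tested.

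For follicular and naive B cells, which carry more CD23 than GC B cells, 9 markers were in the table and their summed level was 282.4 to 306.7 CPM in WT and 264.8 to 271.6 CPM in Hvem-/- samples, ranges that did not overlap. None of the 8 tested was called, and 0 had an unadjusted p under 0.05 in edgeR. Of these 8, 6 had a log2 fold change below 0, against 50.8% of all tested genes. The lowest were *Klf2* (-1.14) and *S1pr1* (-0.63, edgeR adjusted p = 0.491 and 0.445), and *S1pr1* did not overlap between genotypes. The 2 above 0 were *Cd55* (0.44) and *Gpr183* (0.29). *Cr2*, the complement receptor CD21 that follicular B cells share with CD23, had counts of 379.9 ± 47.6 and 327.2 ± 49.7 (SD, n = 3 each), which overlapped. *Cr2* had the highest counts of the 9 markers, and the summed level of the others overlapped between genotypes. *Cd38*, which the sort selected against, had 144.9 ± 11.4 and 123.9 ± 21.5. The ratio of *Fcer2a* to *Cr2* within a sample was 1.05 ± 0.132 in WT and 0.624 ± 0.162 in Hvem-/- cells and did not overlap. Follicular dendritic cells also display CD23, and 1 of their 7 markers analysed here, *Vcam1*, was at a level that could be tested. *Cxcl13* and *Pdpn* were at 0 reads in all 6 libraries. None of the 6 myeloid and 4 plasma cell markers tested was called either. The summed level of the 8 myeloid markers was uneven between samples. It was 138.6, 80.8 and 115.2 CPM in WT and 197.3, 51.5 and 78.8 CPM in Hvem-/- samples, highest in Hvem-/- replicate 2. The part of follicular B cells and other cells in the result was not tested.

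**Figure D4:**
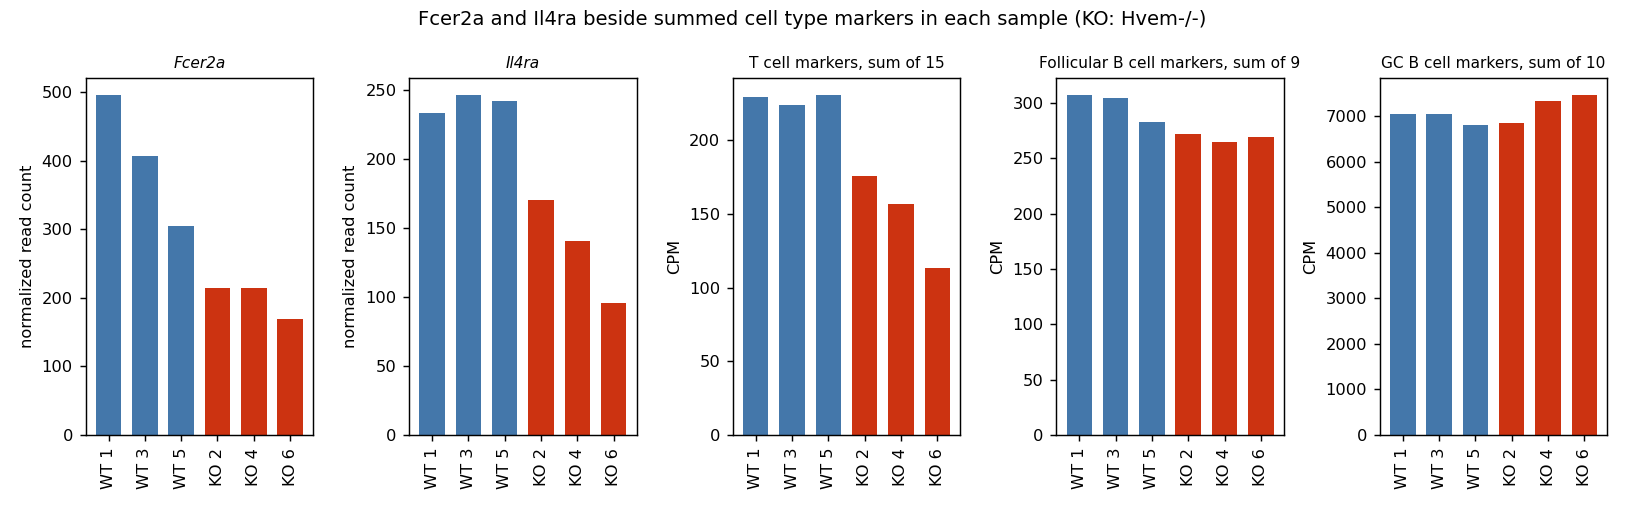
Normalized read counts of *Fcer2a* and *Il4ra* beside the summed CPM of T cell, follicular B cell and GC B cell markers, with a bar per sample (WT blue, Hvem-/- red, all axes from 0). The T cell sum is 223.7 to 230.4 CPM in WT and 113.4 to 175.5 CPM in Hvem-/- samples, the follicular sum differs less, and the GC B cell sum overlaps.

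The other genes of the pathway were taken from 7 lists written by role, which hold 65 genes, 48 of them tested. None was called at an adjusted p under 0.01 by edgeR, DESeq2 or limma, and before adjustment each tool put 4 below 0 and 3 above 0 at a p under 0.05. These are 8.33% and 6.25% of the genes tested, near the shares of all genes. Among the other γ chain and IL-13 receptor chains, 6 of 8 were tested. *Il2rb*, the signalling chain shared by the IL-2 and IL-15 receptors, had normalized counts of 31.2, 42.2 and 82.2 in WT and 26.7, 20.3 and 28.4 in Hvem-/- cells (log2 fold change -1.07, edgeR adjusted p = 0.254). WT replicate 5 alone set much of that distance. *Il13ra2* had 0 reads in every library.

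Of the 6 other JAK and STAT genes, *Stat5a* and *Stat5b* encode the STATs used by IL-2 and IL-7. *Stat5a* had counts of 86.9, 96.5 and 109.8 in WT and 76.8, 60.1 and 44.9 in Hvem-/- cells without overlap. Its log2 fold change was -0.69 (edgeR adjusted p = 0.261), and -0.45 after the GC and length correction. Its close relative *Stat5b* had 150.1 ± 9.11 and 144.3 ± 16.4 (SD, n = 3 each). Among 13 tested inhibitors, 8 had a log2 fold change below 0 and 5 above, where 50.8% of all tested genes were below 0. The 3 with an unadjusted p under 0.05 in edgeR were above 0, where the share of all tested genes was 6.72%. The 3 were *Pias2* (0.60), *Pias1* (0.39) and *Ptpn2* (0.33), with 0.50, 0.25 and 0.15 after the GC and length correction. They encode a pair of PIAS proteins and a phosphatase that acts on JAKs and STATs.

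None of the IL-4 and STAT6 targets other than *Fcer2a* was called. Of 7 tested, 6 had a log2 fold change below 0, against 50.8% of all tested genes. The list median was -0.18, against -0.01 for all tested genes, and it was -0.08 after the GC and length correction. The MHC class II genes *H2-Aa*, *H2-Ab1* and *H2-Eb1*, which IL-4 raises on B cells, had log2 fold changes of -0.09, -0.17 and -0.18 (edgeR adjusted p = 0.804, 0.557 and 0.581). The invariant chain *Cd74* had -0.30 (edgeR adjusted p = 0.356). *Xbp1* had -0.28 (edgeR adjusted p = 0.458), and its values did not overlap between genotypes. Of 10 tested IL-21 and STAT3 targets, 7 were below 0 and 3 above, where 50.8% of all tested genes were below 0. The list median was -0.11. *Pim2* (-0.59) and *Maf* (-0.92) were lower without overlap between genotypes (edgeR adjusted p = 0.468 and 0.561). *Irf4* had 0.23 (edgeR adjusted p = 0.599). *Bcl6*, the defining repressor of GC B cells, had a normalized count of 2747 ± 145.2 in WT and 2752 ± 29.2 in Hvem-/- cells (SD, n = 3 each), and the plasma cell factor *Prdm1* 150.3 ± 44.3 and 126.4 ± 28.2.

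**Figure D5:**
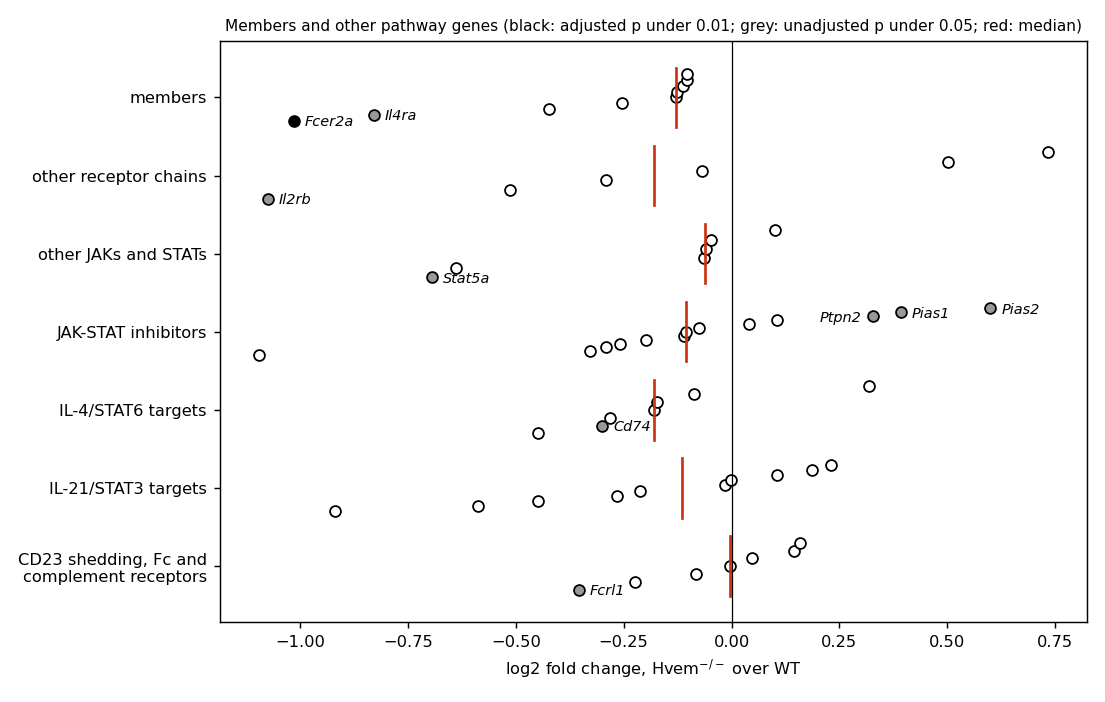
Log2 fold change of Hvem-/- over WT (horizontal axis) of each tested gene in the set and in 6 lists of other pathway genes, with list medians in red. *Fcer2a* is the only filled black point, at -1.01, and grey points mark an unadjusted p under 0.05.

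Among 7 tested genes for CD23 shedding and other Fc or complement receptors, *Adam10*, the main protease that releases CD23 from the cell surface, had counts of 345.6 ± 27.8 and 383.4 ± 4.73 (SD, n = 3 each) and a log2 fold change of 0.15 (edgeR adjusted p = 0.724). *Fcgr2b*, the inhibitory receptor for IgG, had 0.16 and *Fcrl1* -0.35 (edgeR adjusted p = 0.827 and 0.336). The cytokines themselves were barely detected in these sorted cells. *Il4* had 0 reads in each library, which allows up to 3 per library, while *Il21* reads numbered 8, 5 and 8 for WT against 2, 2 and 0 for Hvem-/- libraries, a T cell transcript whose genotypes did not overlap and which was too low to test.

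Genes of the 2 GC zones were also looked at, and their relation to *Fcer2a* was not tested. Of 8 dark zone genes, 3 were called higher in Hvem-/- cells, against 0.186% of all tested genes. All 3 belong to cell division, namely *Mki67*, *Ccnb1* and *Hmmr* (log2 fold changes 0.92, 0.79 and 0.69, edgeR adjusted p = 0.00033, 0.00475 and 0.00663). The chemokine receptor *Cxcr4*, which places cells in the dark zone, had -0.36 (edgeR adjusted p = 0.31). Of 7 tested light zone genes, 0 were called by edgeR and 2 had an unadjusted p under 0.05, *Lmo2* and *Myc* (0.48 and 0.50). Of all tested genes, 6.72% were higher at that p.

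Sample by sample, the ratio of *Fcer2a* to *Il4ra* counts ranged from 1.26 to 2.12 in WT and from 1.25 to 1.77 in Hvem-/- cells, so the 2 genes did not keep a fixed proportion within a genotype. Over the 6 samples Pearson's r of their log2 CPM was 0.88, and it was 0.42 for deviations from the genotype means. These values share 6 libraries with their depth and base composition, and are descriptions with no test.

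Among 8396 genes with an average log2 CPM of at least 3, the 5 most like *Fcer2a* over the 6 samples were *Gm2a*, *Slc43a2*, *Psd4*, *Pigt* and *Ubtf* (r = 0.987 to 0.973). Those most like *Il4ra* were *Pitpnm1*, *Hsd17b4*, *Ikbke*, *Foxk2* and *Fyn* (r = 0.996 to 0.994). None of these 10 passed the threshold for genotype in edgeR, with adjusted p from 0.0849 to 0.663. With only 6 samples high values were common, since 131 genes reached an r of 0.9 with *Fcer2a* and 242 with *Il4ra*. Hvem-/- replicate 6 had the largest deviation of *Il4ra* from the mean of the 6 samples (-0.89 in log2 CPM), and likeness was not computed without it.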

How the data were processed

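GC B cell RNA was measured in 3 WT and 3 Hvem-/- libraries. The authors amplified RNA with Ovation V2, sequenced paired ends, aligned with STAR and ran DESeq2 (the sources used here give no versions). The submitters' notes name CASAVA, TopHat2 2.0.8b, Cufflinks 2.1.1 and mm10. The deposited values per sample are a signal, reads per gene divided by a size factor. The authors' own columns, which hold a mean over all samples, log2 fold changes, standard errors, a test score and p-values, were deposited too and not used. All values (100%) were whole multiples of 1 step per sample within 1e-06, so read counts were recovered and tested. No column was left without a sample.

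Counts were fitted with edgeR 4.0.16 (R 4.3.3), using filterByExpr, TMM, glmQLFit and glmQLFTest on genotype alone, with Benjamini-Hochberg adjustment over all 9653 tested genes and a threshold of 0.01. This called 21 genes. The steps were tested on simulated data. Alternatives were DESeq2 1.42.0, limma 3.58.1 on log2(value + 1), other filters, factors and thresholds, a loess correction (span 0.5) for GC content and length, and leaving out each sample. Lengths, GC content and coordinates came from GENCODE vM21 (GRCm38) and were known for 98.8% of tested genes. CPM used TMM library sizes, log2 CPM a prior count of 2. Counts are not stated to use strand, so antisense reads cannot be told apart.

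The 10 genes and all lists were chosen with earlier results of these data known. Besides these 10 and *Tnfrsf14*, the text names genes past the threshold in a list, up to 4 per list with the smallest p, marker genes, the 5 genes most like *Fcer2a* and *Il4ra*, and, chosen after their values were seen, *H2-Aa*, *Stat5b*, *Bcl6*, *Il4*, *Il21* and *Il13ra2*. *Ighd* and *Fdcsp* were not analysed here, and 25 symbols that had turned into dates are not named.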

Additional observations from a re-analysis of the deposited data

How the results depend on the processing

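The log2 fold changes of *Fcer2a* and *Il4ra* were below 0 under all 13 alternatives, from -1.18 to -0.84 and from -1.02 to -0.64. *Fcer2a* passed 0.01 in 7 of them (adjusted p 7.43e-07 to 0.182) and *Il4ra* in 1 (0.0033 to 0.299), which was the fit with no filter on low counts. Of the 13, 1 is the main fit read at a threshold of 0.05. It repeats the main values and is counted among the 7. The count of genes changed was 21, and it was 49 at an adjusted p under 0.05, 52 with DESeq2, 84 with no filter on low counts, 11 with the GC and length correction, and 3 to 31 when a sample was left out, the lowest being without WT replicate 1, with 13 without WT replicate 3 and 12 without Hvem-/- replicate 4. Of the 10 genes, 1 was called. It was 2 with no filter, 0 with limma, 0 with the GC and length correction, and 0 to 1 when a sample was left out, 0 being without WT replicate 1, WT replicate 3, Hvem-/- replicate 4 or Hvem-/- replicate 6. *Fcer2a* had an adjusted p of 0.0106 with limma. Of the other pathway and zone genes, 3 were called, 1 with the correction, and 0 to 4 when a sample was left out: 0 without WT replicate 1 and 1 without WT replicate 3, WT replicate 5 or Hvem-/- replicate 4. The log2 fold change changed sign for *Il21r* (0.0696), *Tyk2* (0.0957) and *Stat3* (0.00257) with the correction, and for *Tyk2* without Hvem-/- replicate 6 (0.0278, in a range of -0.31 to 0.0278 when a sample was left out), none of which had passed the threshold. The cause was not tested. Fits that leave out a sample keep 2 in that genotype.

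No paired analysis was possible because the labels number the WT samples 1, 3 and 5 and the Hvem-/- samples 2, 4 and 6, which share no number, and no source used here says which libraries came from the same chimera. Depth limits *Socs1*, *Il21* and *Tnfrsf14*, all under 21 reads per library.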
